A study of Capra hircus with 2 samples.

Results

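In the cells of cashmere goat skin, 9 genes of the vessel wall were followed, PECAM1, PLVAP, VWF, SELE, SELP, ACKR1, TFPI2, AQP1 and CD34. Several of them serve the adhesion of leukocytes or the passage of fluid. The genes were chosen by symbol, and all 9 were found among the 27137 features of the matrix. A cell was counted as a vessel cell when it held at least 1 unique molecular identifier (UMI, the tag that lets each captured RNA molecule be counted once) of PECAM1 or PLVAP. By this rule 475 of 13051 kept cells were vessel cells. Since PECAM1 and PLVAP set the rule, their values in these cells are a description, and the other 7 members are what the cells could show independently of it.

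The skin came from the shoulder of 2 healthy Liaoning cashmere goats in anagen, the growth phase of the hair, and neither animal was treated. One goat was of the coarse fibre type (CT-LCG) and the other of the fine type (FT-LCG). The tissue was washed free of blood and fat, digested, treated to lyse red cells and to remove dead cells, and measured as 1 single-cell 3' library per goat. With 1 library per fibre type, fibre type, animal and library cannot be told apart, no test between them was run, and all intervals below cover counting error only. Neither sample is labelled with a fibre type, so the type of each cell comes from the deposited table of kept cells. That table kept 3443 cells in CT-LCG, with a median of 2314 UMIs, and 9608 in FT-LCG, with a median of 6121.5. The kept cells of the libraries shared 11 barcode sequences.

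Endothelial cells line blood and lymphatic vessels. PECAM1 is an adhesion molecule of their junctions that platelets and many leukocytes also carry, and PLVAP forms the diaphragms of endothelial pores and caveolae, through which fluid and proteins pass. Leukocytes leave the blood mainly through the walls of postcapillary venules. There the selectins SELP and SELE slow them down, and ACKR1 carries chemokines across the endothelium. VWF is the adhesive protein that ties platelets to damaged walls and is stored together with SELP. AQP1 is a water channel, TFPI2 an inhibitor of serine proteases of the coagulation and matrix systems, and CD34 a sialomucin of capillary endothelium, of some fibroblasts and, in rodents, of the hair follicle bulge.

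The rule selected cells of different kinds. Vessel cells made up 4.53% of kept cells in CT-LCG (156 of 3443, interval 3.86 to 5.28%) against 3.32% in FT-LCG (319 of 9608, interval 2.97 to 3.70%). All kept cells were also clustered without the 9 members, which gave 13 clusters. Of these, 1 was endothelial-like, with ECSCR, EMCN and MMRN2 among its 10 leading genes beside CCL21 and CSF3, and it held 58 cells of CT-LCG and 156 of FT-LCG. In it 49 cells of CT-LCG and 142 of FT-LCG were vessel cells, so that 191 of the 475 lay inside and 284 outside. The cluster's share of the kept cells was 1.68% in CT-LCG (interval 1.28 to 2.17%) against 1.62% in FT-LCG (interval 1.38 to 1.90%), which overlap.

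The cells inside the cluster held endothelial genes and those outside mostly did not. The list of 18 endothelial genes used here also gave the cluster its name, and its genes were not left out of the clustering. The contrast therefore describes the cluster and is no independent support for its name. Of these 18 genes (among them CDH5, CLDN5, TIE1 and KDR), the median vessel cell inside the cluster had 4 detected in CT-LCG against 8 in FT-LCG. The median cell outside had 0 in both libraries, and 91 of 107 such cells in CT-LCG and 139 of 177 in FT-LCG had none. Of the outside cells, 94 of 107 in CT-LCG and 161 of 177 in FT-LCG owed their place to a single UMI. The set as a whole is therefore called vessel cells only by its rule, and results are given for the cluster beside it. In CT-LCG 107 of 156 vessel cells lay outside the cluster, against 177 of 319 in FT-LCG.

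All 7 free members were found far more often inside the cluster than outside it. VWF was detected in 18.6% of all vessel cells of CT-LCG (29 of 156, interval 12.8 to 25.6%) and 37.9% of FT-LCG (121 of 319, interval 32.6 to 43.5%). Within the cluster the shares were 59.2% (29 of 49, interval 44.2 to 73.0%) and 77.5% (110 of 142, interval 69.7 to 84.0%). Outside it VWF was seen in 0 of 107 vessel cells of CT-LCG, which allows a share of up to 2.80%, and in 11 of 177 of FT-LCG.

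**Figure D1:**
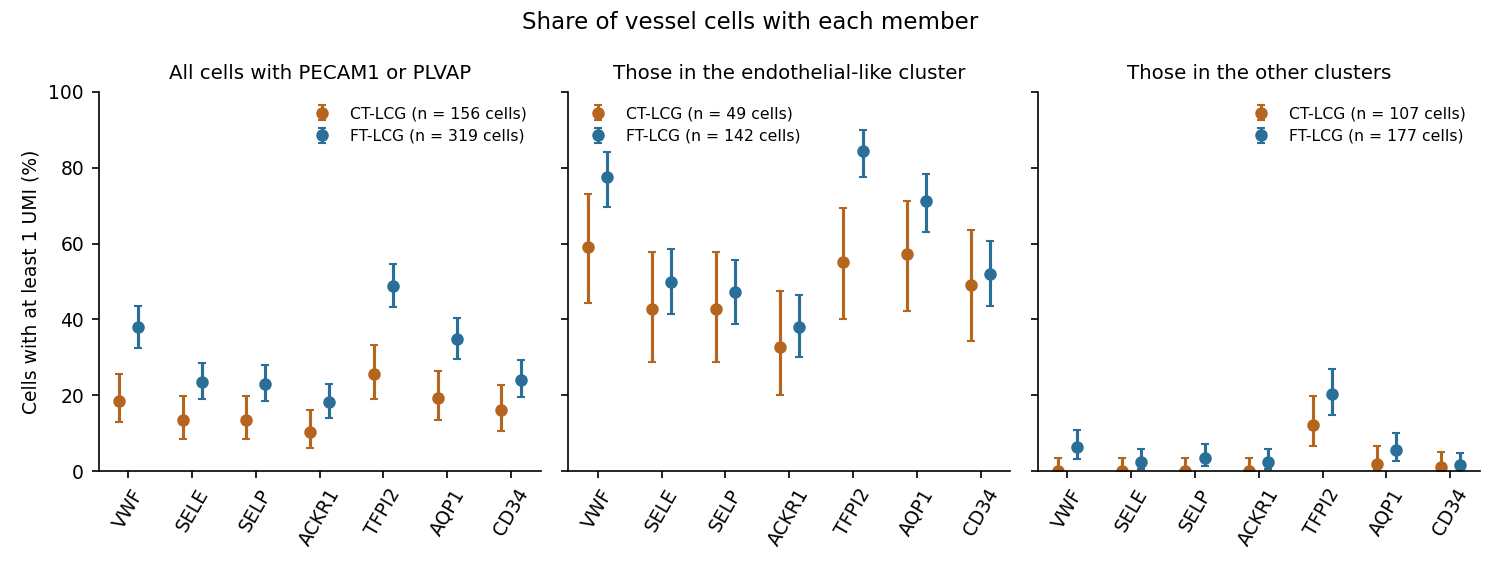
Share of vessel cells with at least 1 UMI of each of the 7 members that the rule did not use (vertical axis, percent), for all vessel cells, those in the endothelial-like cluster and those in the other clusters. Points are the libraries CT-LCG and FT-LCG, and bars are Clopper-Pearson intervals for counting error; VWF, for example, goes from 18.6% and 37.9% of all vessel cells to 59.2% and 77.5% in the cluster.

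The selectins and ACKR1 formed the adhesion group. SELE was found in 42.9% of the vessel cells inside the cluster in CT-LCG (21 of 49) against 50.0% in FT-LCG (71 of 142). SELP was found in 42.9% (21 of 49) and 47.2% (67 of 142), and ACKR1 in 32.7% (16 of 49) and 38.0% (54 of 142). For each of these 3 genes the intervals of the libraries overlapped inside the cluster. Outside it none of the 3 was seen in the 107 vessel cells of CT-LCG, and SELE, SELP and ACKR1 were seen in 4, 6 and 4 of the 177 of FT-LCG.

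Among the transport and surface genes, AQP1 was found in 57.1% of the vessel cells inside the cluster in CT-LCG (28 of 49) against 71.1% in FT-LCG (101 of 142). CD34 was found in 49.0% (24 of 49) and 52.1% (74 of 142), with few molecules a cell: the median positive cell held 1 UMI in CT-LCG against 2 in FT-LCG. TFPI2 was the member whose share differed most between the goats in these cells, with 55.1% in CT-LCG (27 of 49, interval 40.2 to 69.3%) against 84.5% in FT-LCG (120 of 142, interval 77.5 to 90.0%). These intervals do not overlap. The cells differed in depth, with medians of 1864 UMIs in CT-LCG against 3209 in FT-LCG. Thinned to 1000 UMIs each, which left out 8 cells of CT-LCG and 12 of FT-LCG, TFPI2 was found in 39.0% (16 of 41) and 74.6% (97 of 130) and VWF in 39.0% (16 of 41) and 48.5% (63 of 130).

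Free RNA from broken cells also gives UMIs in droplets whose cell does not make a gene. Keratinocytes of the granular layer should lack vessel genes. In the granular layer-like cluster the share of cells with a UMI of VWF, SELE, SELP, ACKR1, AQP1 or CD34 stood at 0 to 1.5% for each gene in CT-LCG (200 cells, median 24102.5 UMIs, where 0 allows up to 1.5%) and 0.332 to 1.16% in FT-LCG (603 cells, median 15064 UMIs). The shares inside the endothelial-like cluster were higher for all 6 genes, at a lower depth. TFPI2 had a UMI in 7.5% of the granular layer-like cells of CT-LCG (15 of 200) and 6.63% of those of FT-LCG (40 of 603), and PECAM1 in 3.00% (6 of 200) and 0.995% (6 of 603). Keratin RNA was found in the endothelial-like cells in turn. KRT10, a keratin of the suprabasal epidermis, had a UMI in 58 of 58 cells of the endothelial-like cluster in CT-LCG and 152 of 156 in FT-LCG, with medians of 9 and 4 UMIs a cell. Cells of the cluster with at least 500 UMIs of KRT1, KRT10, KRT25, KRT27 and TCHH numbered 1 in CT-LCG against 4 in FT-LCG, and in 1 of the latter these 5 genes gave 14102 UMIs. The ratios between the goats are therefore given with and without these cells.

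The levels of the members over all vessel cells were compared between the goats as a ratio of summed UMIs per 10000. In FT-LCG 7 of the 7 free members were higher by more than 1.5-fold, and their median log2 ratio was 1.31 against 0.01 over all 9663 genes with at least 20 UMIs in vessel cells. Over those genes 20.7% were past this fold toward FT-LCG and 19.7% toward CT-LCG. VWF was at 1.04 in CT-LCG against 2.56 in FT-LCG, a ratio of 2.47 (interval 2.02 to 3.06). SELE had a ratio of 3.63 (interval 2.99 to 4.42), SELP of 2.91 (interval 2.49 to 3.42) and ACKR1 of 1.98 (interval 1.67 to 2.35). Of the genes of the rule, which selected these cells, PECAM1 was at 4.2 in CT-LCG against 3.96 in FT-LCG, a ratio of 0.94 (interval 0.84 to 1.06), and PLVAP had a ratio of 1.96 (interval 1.73 to 2.23).

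Fewer members differed by that much within the endothelial-like cluster, where 2 of 9 members were past 1.5-fold toward FT-LCG and 1 toward CT-LCG. The background in the cluster was 22.9% of 5971 genes toward FT-LCG and 19.4% toward CT-LCG. ACKR1 stood at 7.96 in CT-LCG against 8.20 in FT-LCG (ratio 1.03, interval 0.87 to 1.22), AQP1 at 9.78 in both (ratio 1.00, interval 0.86 to 1.17), PLVAP at 13.0 and 13.3 (ratio 1.03, interval 0.90 to 1.18) and CD34 at 1.87 and 1.89 (ratio 1.01, interval 0.71 to 1.47). The cells outside the cluster brought 873779 of the 1071814 UMIs of the vessel cells of CT-LCG and 1492609 of the 2377476 of FT-LCG, and 0 UMIs of VWF, SELE, SELP and ACKR1 in CT-LCG.

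**Figure D2:**
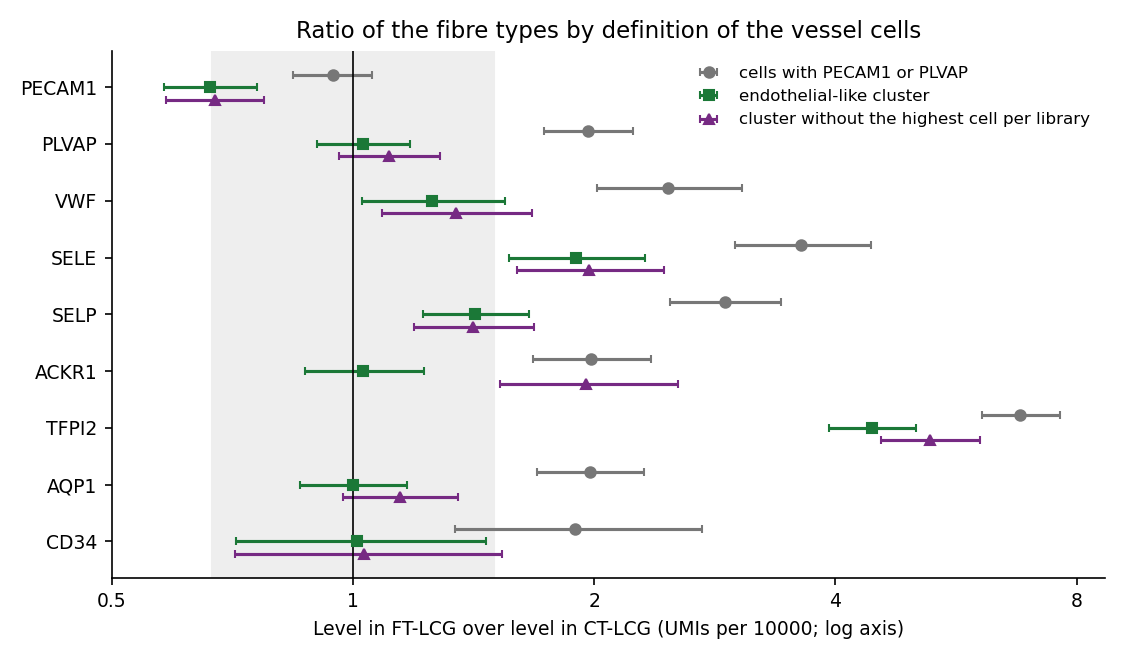
Ratio of the level of each member in FT-LCG to that in CT-LCG (horizontal axis, logarithmic; levels in UMIs per 10000) over all vessel cells, over the endothelial-like cluster and over the cluster without the cell of each library highest in that gene. Bars are exact intervals for counting error, and the grey band spans 1.5-fold either way; ACKR1, for example, is at 1.98, 1.03 and 1.95.

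TFPI2 and SELE were the members past 1.5-fold toward FT-LCG in the cluster, and for SELP and VWF the intervals also lay above 1. TFPI2 was at 12.4 in the cluster of CT-LCG and 55.1 in that of FT-LCG, a ratio of 4.44 (interval 3.93 to 5.05), and SELE at 5.57 and 10.6, a ratio of 1.90 (interval 1.57 to 2.31). SELP was at 9.27 and 13.2 (ratio 1.42, interval 1.22 to 1.66) and VWF at 5.29 and 6.63 (ratio 1.25, interval 1.02 to 1.55). PECAM1 was lower in FT-LCG, at 14.3 and 9.46 (ratio 0.66, interval 0.58 to 0.76). Without the 5 keratin-rich cells the ratios were 4.75 for TFPI2 and 1.97 for SELE. SELP, at 1.57 (interval 1.32 to 1.87), and ACKR1, at 2.38 (interval 1.85 to 3.09), were then also past 1.5-fold. PECAM1, at 0.672 (interval 0.587 to 0.773), was then just short of 1.5-fold toward CT-LCG. The interval of VWF then held 1, with a ratio of 1.20 (interval 0.978 to 1.49).

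The near-equal level of ACKR1 rested on 1 cell. In CT-LCG a single cell held 101 of the 170 ACKR1 UMIs of the cluster, or 59.4%, and this was the keratin-rich cell, with 32449 UMIs in all. Without the highest cell of each library ACKR1 was at 3.81 in CT-LCG against 7.44 in FT-LCG, a ratio of 1.95 (interval 1.52 to 2.54). The same step gave ratios of 5.25 for TFPI2, 1.97 for SELE and 1.41 for SELP. PECAM1, at 0.672, was again just short of 1.5-fold toward CT-LCG. In no other member did the highest cell hold over 22.6% of the UMIs of a library's cluster.

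Vessel subtypes were read from co-detection inside the cluster, because over all vessel cells any pair of members separates endothelial from other cells. In each of the 42 ordered pairs of the 7 free members, the second gene was found in a larger share of the cells with the first gene than of those without it in both libraries, and in 20 of the 42 the intervals were separate in both. Cells with a gene were also deeper. After thinning to 1000 UMIs 32 of the 42 kept this direction in both libraries, and the intervals were separate for 18 of the 42 in FT-LCG and for 0 in CT-LCG. A pair has the same direction in both of its orders, so the 42 are not separate results. Pairs of other genes were not counted, so whether these counts are particular to the members was not tested.

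The selectins gave the largest difference between these shares in both libraries, with all UMIs counted. Of the 21 SELP-positive vessel cells inside the cluster in CT-LCG, 19 also held SELE (90.5%), against 2 of the 28 without SELP (7.14%). In FT-LCG 61 of 67 SELP-positive cells held SELE (91.0%), against 10 of 75 without it (13.3%). ACKR1 was nested in the same cells: SELE was found in 14 of 16 ACKR1-positive cells of CT-LCG (87.5%) and 51 of 54 of FT-LCG (94.4%), against 7 of 33 (21.2%) and 20 of 88 (22.7%) of the others. SELP and SELE lie on the same chromosome in the RefSeq annotation of goat, and ACKR1 lies on another.

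**Figure D3:**
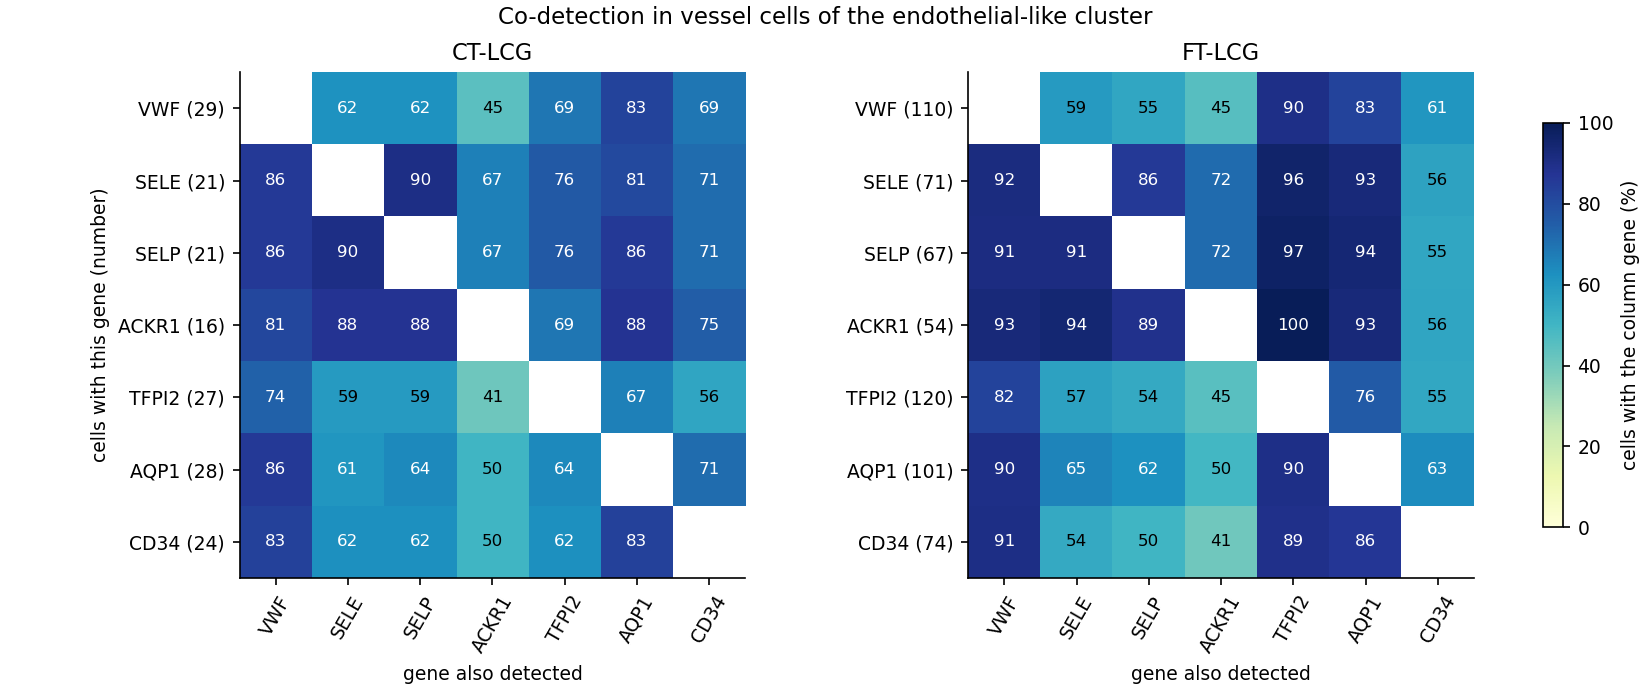
Share of vessel cells of the endothelial-like cluster with the gene of the row that also held the gene of the column (percent, in colour and as rounded numbers), for CT-LCG beside FT-LCG. The numbers next to the row names are cells with that gene, and diagonal cells are blank; the block of SELE, SELP and ACKR1 is high in both libraries, and the CD34 column of FT-LCG spans 55.0 to 63.4%.

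CD34 and AQP1 were set against SELE in the same way. In FT-LCG CD34 was found in 40 of 71 SELE-positive cells (56.3%) and 34 of 71 SELE-negative cells (47.9%), and the intervals overlapped. AQP1 was found in 66 of 71 (93.0%) and 35 of 71 (49.3%), with separate intervals. In CT-LCG CD34 was found in 15 of 21 SELE-positive cells (71.4%) and 9 of 28 SELE-negative cells (32.1%), and AQP1 in 17 of 21 (81.0%) and 11 of 28 (39.3%). Both genes had overlapping intervals there.

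Cells with a UMI of SELE, SELP or ACKR1 were called venular. Inside the cluster these were 49.0% of vessel cells in CT-LCG (24 of 49, interval 34.4 to 63.7%) against 54.9% in FT-LCG (78 of 142, interval 46.4 to 63.3%). At least 2 of the 3 genes were held by 21 and 68 of them, and all 3 by 13 and 46. None of the 7 free members was seen in 5 of the 49 cells and 8 of the 142. Over all vessel cells the venular share was 15.4% in CT-LCG (24 of 156, interval 10.1 to 22.0%) against 27.0% in FT-LCG (86 of 319, interval 22.2 to 32.2%). These intervals were separate by a small margin, while those inside the cluster overlapped.

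A lymphatic group stood apart from the venular cells. Vessel cells of the cluster with at least 2 genes of a lymphatic list of 8 (PROX1, LYVE1, FLT4, CCL21, RELN, PDPN, MMRN1 and TFF3) numbered 6 in CT-LCG against 21 in FT-LCG, a split chosen after the values had been seen. Of these, 1 in CT-LCG against 2 in FT-LCG were also venular. The rule fixed that each of these cells held PECAM1 or PLVAP. Counted over the cluster without the rule there were 7 lymphatic cells in CT-LCG against 26 in FT-LCG, of which 6 and 21 held PECAM1 and 1 and 7 held PLVAP. PLVAP was at 6.61 in the lymphatic cells of CT-LCG, where 1 cell held all 20 of its UMIs. In those of FT-LCG it was at 1.97 (interval 1.41 to 2.68), and 1 cell held 33 of its 40 UMIs. The venular cells of FT-LCG had it at 18.4 (interval 17.2 to 19.7). VWF was at 0.49 in the lymphatic cells of FT-LCG (interval 0.24 to 0.90) and 9.13 in the venular cells (interval 8.29 to 10.0), and AQP1 at 0.69 and 14.5. TFPI2 remained present, in 19 of 21 lymphatic cells of FT-LCG and at a level of 34.1, with 253 of its 693 UMIs in 1 cell. In CT-LCG it was found in 4 of 6 lymphatic cells, with 12 UMIs at a level of 3.97.

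**Figure D4:**
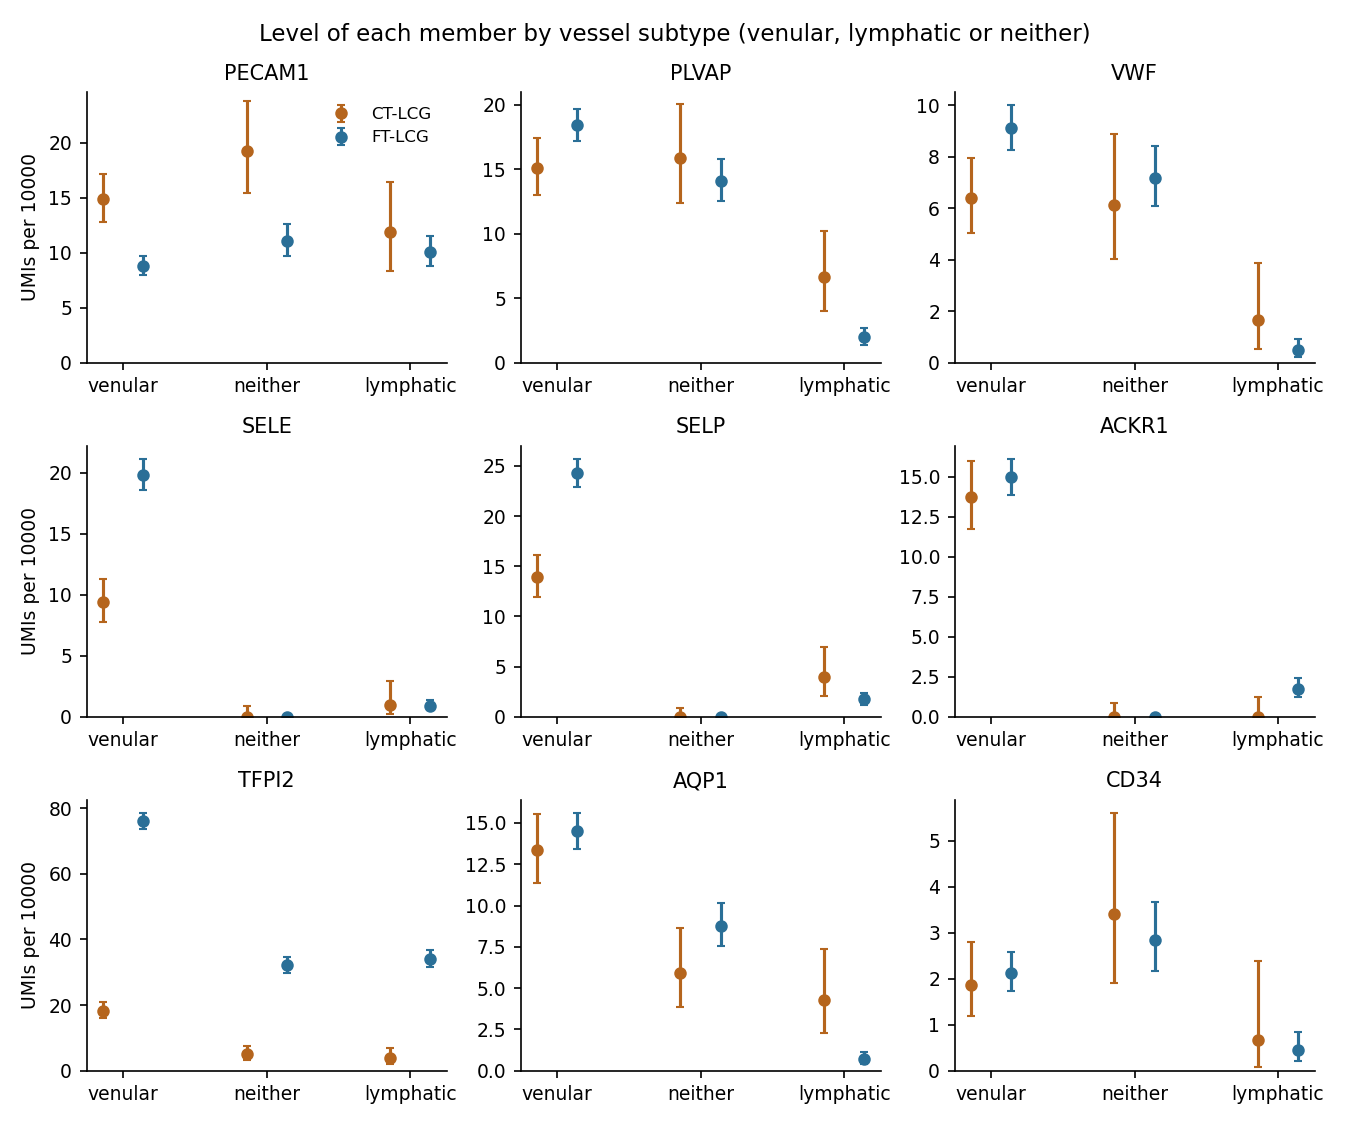
Level of each member (vertical axes, UMIs per 10000) in vessel cells of the endothelial-like cluster called venular, lymphatic or neither, with venular cells that were also lymphatic counted as lymphatic. Points are CT-LCG (23, 6 and 20 venular, lymphatic and other cells) and FT-LCG (76, 21 and 45), and bars are exact Poisson intervals. SELE, SELP and ACKR1 define the venular cells, while PLVAP, VWF, AQP1 and CD34 are lowest in the lymphatic cells of both libraries. In CT-LCG each of the latter genes was seen in 1 of 6 lymphatic cells, and the intervals of AQP1 and CD34 overlap those of the other cells.

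The remaining 20 cells of CT-LCG and 45 of FT-LCG were neither venular nor lymphatic. The remaining cells carried PLVAP at 15.9 and 14.1, VWF at 6.12 and 7.17 and CD34 at 3.40 and 2.85. PLVAP is a gene of the rule, and 7 of the 20 cells of CT-LCG and 27 of the 45 of FT-LCG held it. In CT-LCG 1 cell held 37 of its 70 UMIs. CD34 in venular cells was at 1.86 in CT-LCG (interval 1.18 to 2.79) against 2.12 in FT-LCG (interval 1.73 to 2.58), which overlaps the interval of the remaining cells in both libraries. AQP1 was lower in the remaining cells, at 5.90 in CT-LCG (interval 3.85 to 8.64) against 13.3 in venular cells (interval 11.4 to 15.5), and at 8.79 against 14.5 in FT-LCG. The arterial list of 6 genes had most of its UMIs in vessel cells from EFNB2, DLL4 and SEMA3G. Its summed level was 7.94 in the remaining cells of CT-LCG (interval 5.53 to 11) and 3.15 in the venular cells (interval 2.24 to 4.31). In FT-LCG the sums were 8.98 and 1.34. Without the keratin-rich cells the venular sums were 3.62 and 1.5. Detection did not follow the sums in CT-LCG, where 18 of 24 venular cells held an arterial gene against 30 of all 49 vessel cells of the cluster. In FT-LCG 37 of 78 venular cells did, against 86 of all 142. These venular cells include those that were also lymphatic, and the 49 and 142 cells include the venular ones. Depth differed too, with medians of 2336.5 UMIs in venular cells of CT-LCG against 1328 in those without a venular gene. In FT-LCG these medians were 3257.5 and 3087.5. The capillary list was also higher in the remaining cells, at 4.99 against 3.07 in CT-LCG, where the intervals overlap. In FT-LCG it was at 4.75 (interval 3.86 to 5.78) against 2.95 (interval 2.48 to 3.48). Without the keratin-rich cells the venular cells of FT-LCG had it at 3.73 (interval 3.12 to 4.42), which overlaps. The venous list (NR2F2, EPHB4, ICAM1 and IL1R1) went the other way from the arterial sums, with 3.86 and 10.4 in CT-LCG and 1.95 and 10.1 in FT-LCG. Markers of other cells also differed, since the remaining cells of FT-LCG had the mural list at 3.32 (70 UMIs) against 0.0849 in venular cells, and the fibroblast-like list at 6.17 against 0.977. In CT-LCG the mural list had 0 UMIs in the remaining cells and 1 in venular cells. The fibroblast-like list had 8 UMIs in each, a level of 1.81 (interval 0.783 to 3.57) against 0.647 (interval 0.279 to 1.27), which overlap. The basal list was at 37.6 in the remaining cells against 12.0 in venular cells of CT-LCG, and at 60.4 against 32.5 in FT-LCG. The suprabasal list went the other way only with the keratin-rich cells counted, at 127 against 292 and 22.7 against 90.1. Without them venular cells had it at 61.9 in CT-LCG, below the remaining cells. In FT-LCG they then had it at 21.1 (interval 19.7 to 22.7), which overlaps the interval of the remaining cells (20.7 to 24.8). The part of these markers in the sums was not tested.

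Genes that went with the venular members were ranked by the lower of the ratios of the libraries. Over all vessel cells the 10 leading genes included LOC102174895, CSF3, LOC102188472, SERTM1, C2CD4B, CFB, MAL, TSPAN12 and IL3RA. Most of the other vessel cells lay outside the cluster, so this ranking also separates the cluster from other cells. Inside the cluster the ratios of these genes ran from 1.62 (C2CD4B) to 21.1 (CFB) in CT-LCG, with IL3RA at 1.71 and SERTM1 and TSPAN12 at 1.86. In FT-LCG they ran from 4.04 (IL3RA) to 193 (CSF3). CSF3, the granulocyte growth factor G-CSF, had 30 UMIs in venular and 3 in other vessel cells of CT-LCG, and 754 and 4 in FT-LCG. At the other end 84 of the 9256 ranked genes had no UMI in venular cells of either library, and the 10 named by order of symbol were ABL2, ACPP, ACTA2, ACTG2, ALOX5AP, ARHGAP11A, BPIFC, C5AR1, CD207 and CD53. Several of these, such as CD53 and CD207, are leukocyte genes and had 0 UMIs in the vessel cells of the cluster.

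Inside the cluster, where 4697 genes were ranked after the values had been seen, the leading named genes were CD74, IL1R1, ARFGEF3 and KLK10 beside 6 that carry only LOC numbers. All 5 keratin-rich cells were venular, and with them the suprabasal list was at 292 in venular cells of CT-LCG against 127 in cells neither venular nor lymphatic, and the hair list at 302 against 4.32 in FT-LCG. Without these 5 cells the lists were at 61.9 and 3.79 in the venular cells, 8 of the 10 leading genes were still among the first 10 of 4257, and KLK10 had too few UMIs to be ranked. CD74, the invariant chain of antigen presentation, was at 4.74 in venular and 0.46 in other cells of CT-LCG and at 6.73 and 0.18 in FT-LCG. IL1R1, the receptor for interleukin 1, was at 1.35 and 0.15 in CT-LCG and at 1.96 and 0.18 in FT-LCG. At the other end were WFDC1, SPOCK2, CCL21, SPARCL1, MMRN1, FLT4, IGFBP5, NR2F1 and PTN with LOC102191280. CCL21, the chemokine of lymphatic endothelium, had 0 UMIs in venular and 494 in other cells of CT-LCG, and 13 and 1283 in FT-LCG.

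Against all other cells, all 9 members were past 4-fold higher in vessel cells in both libraries, as were 3.98% of the 9663 genes tested, and 2 of the 9 are the rule itself. The lower of the ratios of the libraries was 284 for ACKR1, 175 for SELE, 146 for VWF, 136 for AQP1, 118 for SELP, 17.4 for CD34 and 9.17 for TFPI2. The 10 other genes with the largest lower ratio included APLNR, LOC102174895, ECSCR, MEOX1, NOS3, ROBO4, CYYR1, MECOM and LOC102169855. APLNR, the apelin receptor, had 10 UMIs in vessel and 1 in other cells of CT-LCG, and 69 and 6 in FT-LCG. NOS3, the nitric oxide synthase of endothelium, had 7 and 1, and 41 and 4.

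The wider lists differed in how far they were higher in vessel cells. All 18 endothelial-like genes were past 4-fold in both libraries, with a median lower ratio of 70.9 against 0.940 over all genes tested. The 3 with the most UMIs, RAMP2 (a partner of the adrenomedullin receptor), EGFL7 and SOX18 (a transcription factor of vessel development), were at levels of 2.36, 0.877 and 0.364 in CT-LCG and 5.58, 1.85 and 1.43 in FT-LCG. Of the lymphatic list 6 of 7 tested genes were past the fold, among them CCL21 at 4.63 and 5.52, MMRN1 at 0.504 and 0.980 and PROX1 at 0.355 and 0.686. Of the permeability and caveolae list it was 7 of 12, namely CLDN5, CDH5, CALCRL, RAMP2, ANGPT2, TEK and S1PR1. CAV1, the caveolar coat protein, had ratios of 4.73 in CT-LCG against 3.59 in FT-LCG.

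The remaining lists were counted in the same way. Of the leukocyte adhesion list 4 of 6 tested genes passed, ICAM1, JAM2, PODXL and ESAM. CD44, CD99 and ICAM1 gave the most UMIs of the list, and of these CD44, which keratinocytes also carry, had ratios of 0.875 and 0.694. Of the haemostasis list 4 of 9 passed, THBD, PROCR, F8 and MMRN1, while F3, the initiator of coagulation, had ratios of 0.679 and 0.991 and gave the most UMIs of the list. Of the arterial list 2 of 5 passed (GJA4 and DLL4, with most UMIs from EFNB2, DLL4 and SEMA3G), of the venous list 2 of 4 (NR2F2 and ICAM1, with most UMIs from these and IL1R1) and of the capillary list 0 of 2 (RGCC and CD36). ICAM1, ESAM, CLDN5, CDH5, RAMP2, TEK and MMRN1 stand on more than 1 list.

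Markers of other cells were present in the vessel set. Of the macrophage or dendritic-like list 2 of 5 tested genes (CD74 and CSF1R), of the mast cell-like list 1 of 4 (SRGN) and of the leukocyte list 1 of 2 (CORO1A) were past 4-fold in both libraries. CD74 was also among the leading genes of the venular cells inside the cluster. The macrophage or dendritic-like list was at 4.93 in these against 0.907 in the cells neither venular nor lymphatic of CT-LCG. In FT-LCG it was at 7.28 against 0.332, and its source there was not tested. The summed mast cell-like list was at 11.6 in the outside vessel cells of CT-LCG and 2.48 in the endothelial-like cluster. None of the tested genes of the mural (2), smooth muscle (3), fibroblast-like (5), basal (5), suprabasal (6) and granular (5) lists passed, nor of the hair (7), outer root sheath (5), cycling (5), melanocyte-like (1) and platelet (1) lists. The T cell-like, Schwann-like and red cell lists had no gene with 20 UMIs. The part of these markers in the member values over all vessel cells was not tested.

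PECAM1 was also found in clusters led by leukocyte genes, almost always without PLVAP. In a cluster led by CLEC5A, FOLR2 and IL1B, 8 of 30 cells of CT-LCG (26.7%, interval 12.3 to 45.9%) and 6 of 77 of FT-LCG (7.79%, interval 2.91 to 16.2%) were vessel cells, with 67 PECAM1 UMIs and 1 PLVAP UMI in all. In 3 of the cells of CT-LCG lay 54 of these PECAM1 UMIs, with 0 of PLVAP, 3 of the endothelial-like list and 279 of the macrophage or dendritic-like list. In the mast cell-like cluster 6 of 66 cells of CT-LCG and 2 of 25 of FT-LCG held PECAM1 and none held PLVAP. In the endothelial-like cluster the same genes had 1159 and 1481 UMIs.

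Outside the endothelial-like cluster SELE, ACKR1, SELP and VWF had few of their UMIs, while TFPI2, CD34 and AQP1 had larger shares of theirs. With both libraries summed, 8.30% of the UMIs of SELE lay outside (97 of 1169) and 9.18% of those of ACKR1 (92 of 1002). For SELP it was 9.65% (148 of 1534) and for VWF 13.4% (110 of 822). Between 91.1% and 95.1% of the outside cells with one of these genes held a single UMI. For comparison, of the genes of the rule 8.75% of PLVAP (142 of 1623) and 16.7% of PECAM1 (232 of 1391) lay outside. The share of PECAM1 differed by library, with 32.2% in CT-LCG (145 of 450) against 9.25% in FT-LCG (87 of 941).

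By the mean of the libraries, the next level of these 4 genes was in the hair matrix, cortex or inner root sheath-like cluster, a large cluster of shallow cells with medians of 1084 UMIs in CT-LCG against 1126.5 in FT-LCG. In FT-LCG SELP was at 0.161 there (interval 0.121 to 0.211) against 13.2 in the endothelial-like cluster. SELE was at 0.122 against 10.6, and ACKR1 at 0.0820 against 8.20. For the 4 genes these levels were 85.7 to 105% of the level over all kept cells of FT-LCG. In a single library another cluster could come next: VWF of FT-LCG was at 0.0948 in the fibroblast-like cells (5 UMIs) against 0.0699, and ACKR1 of CT-LCG at 0.0613 in the cluster led by CLEC5A, FOLR2 and IL1B (1 UMI) against 0.0455. The granular layer-like cells of FT-LCG had 0.00469 of SELP and 0.00469 of ACKR1.

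**Figure D5:**
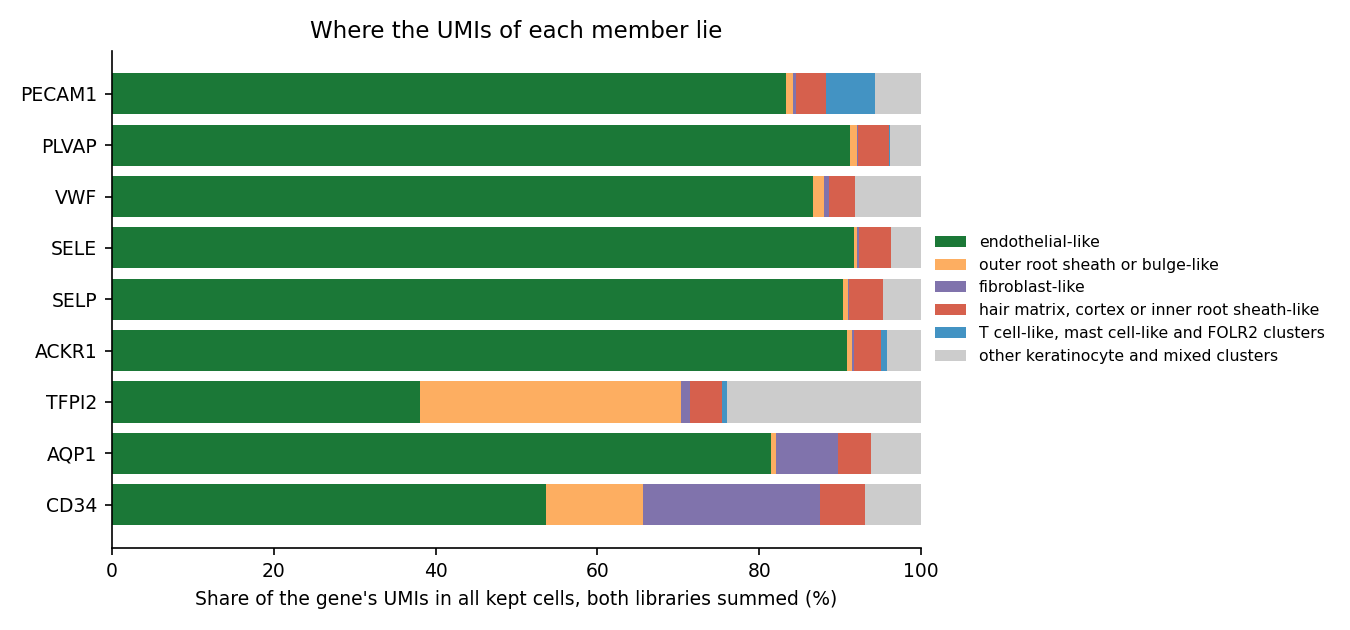
Share of the UMIs of each member in all kept cells, both libraries summed (horizontal axis, percent), by the cluster that holds them. SELE, ACKR1, PLVAP and SELP have between 90.4% and 91.7% in the endothelial-like cluster, TFPI2 38.1% there and 32.3% in the cluster of outer root sheath or bulge-like cells, and CD34 53.7% there and 21.9% in the fibroblast-like cluster.

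CD34 in both libraries, and AQP1 in FT-LCG, had a further source in the fibroblast-like cluster. AQP1 was found there in 37 of 121 cells of FT-LCG (30.6%) with 100 UMIs at a level of 1.90 (interval 1.54 to 2.31), and in 3 of 105 cells of CT-LCG with 4 UMIs at 0.0815 (interval 0.0222 to 0.209). The AQP1 level of CT-LCG there was 93.2% of its level over all kept cells of that library. The ratio was 23.3 (interval 8.81 to 87.0), while the level in the endothelial-like cluster was equal between the libraries. CD34 was at 0.836 in the fibroblast-like cells of CT-LCG (22 of 105 cells) and 0.853 in those of FT-LCG (27 of 121 cells), a ratio of 1.02 (interval 0.65 to 1.60). In the cluster of outer root sheath or bulge-like cells CD34 had 47 UMIs in 40 of 1291 cells. In all, 46.3% of the CD34 UMIs (182 of 393) and 18.5% of the AQP1 UMIs (248 of 1340) lay outside the endothelial-like cluster.

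TFPI2 had most of its UMIs in cells other than endothelial ones. Of its 13757 UMIs, 61.9% (8516) lay outside the endothelial-like cluster. By library the share was 78.7% in CT-LCG (980 of 1245) against 60.2% in FT-LCG (7536 of 12512). In the cluster of outer root sheath or bulge-like cells, led by BGN, DKK2, CXCL14, STAR and LGR5, it had 4390 UMIs in 251 of 1128 cells of FT-LCG, a level of 3.89 (interval 3.77 to 4.01). The same cluster of CT-LCG had 53 UMIs in 18 of 163 cells, a level of 0.495 (interval 0.371 to 0.647), and the ratio was 7.86 (interval 5.99 to 10.5). Of the 4390 UMIs, 3997 were in 80 cells with at least 10 each, up to 325 in a cell. In CT-LCG 1 cell of this cluster held 10 or more.

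The direction of TFPI2 was not the same in every cluster. Beside the bulge-like cells, FT-LCG was higher in the cluster led by KIF2C and AURKB (0.540 against 0.0695), in the fibroblast-like cells (2.16 against 0.774), in the cluster led by KRT4 (0.865 against 0.311) and, by less, in the cluster led by KRT9 (0.335 against 0.277). FT-LCG was lower in the cluster led by ACKR4 and CCL27 (0.328 against 1.06, ratio 0.31, interval 0.27 to 0.36) and in the cluster led by KRT6A (0.265 against 0.844). In the granular layer-like cluster the levels were 0.0690 in CT-LCG against 0.0506 in FT-LCG, and the interval of the ratio held 1. The hair matrix, cortex or inner root sheath-like cells of FT-LCG held TFPI2 in 408 of 2050 cells (19.9%), against 2.49% for SELP, and 4.19% in CT-LCG. Their levels of TFPI2, 1.46 in FT-LCG against 0.395 in CT-LCG, were 99.7% and 88.4% of the level over all kept cells of the library, and 348 of the 408 cells held a single UMI. The part of free RNA in these values was not tested.

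Over all 7 free members 48.5% of UMIs lay outside vessel cells in CT-LCG (1098 of 2263) against 45.8% in FT-LCG (8137 of 17754). Without TFPI2 the shares were 18.4% (187 of 1018) and 12.7% (667 of 5242). Of the 656 cells outside the vessel set that held any of these 6 members, 571 held a single UMI.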

How the data were processed

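Single-cell libraries of the skin of 2 goats, 1 from each, were analysed. The matrix deposited by the authors holds raw UMI counts, made with Cell Ranger (3.0.2 per the file headers) and not normalized. The goat genome build is not given in the sources used here, so no coordinates are printed. Cells and their fibre types were taken from the deposited table of kept cells. The authors limited it to more than 500 genes and state that cells with high mitochondrial gene coverage were excluded too. The depth was 27890472 UMIs over the kept cells of CT-LCG, and 85400323 over those of FT-LCG.

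Cells were clustered on 2000 variable genes without the members (10 principal components, Harmony rewritten after its published algorithm, Leiden at resolution 0.4). The resolution was set to give 13 clusters, as many as the study describes. A cluster was named from a marker list when at least 3 markers had 10 UMIs or more and their mean log2 fold over the other cells reached a set limit. The list also had to hold more of the cluster's 10 leading genes than any other list. List genes absent from the matrix, among them VCAM1, ICAM2, CAVIN1, CAVIN2 and CAVIN3, were not used. Some genes that the lists and rankings hold are not reported here. Scrublet marked 0 doublets in either library and was taken not to have worked. Instead the 5% of cells with the highest scores were left out as an alternative.

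Levels are summed UMIs per 10000 with exact Poisson intervals, ratios have exact conditional binomial intervals and shares Clopper-Pearson intervals, all at 95%. A count of 0 was given the limit of 3 counts. Ratios used genes with at least 20 UMIs, with 5 in each library for ranked genes. Named genes were all members, the 3 highest of each list and the 10 leading genes of each ranking. The members and lists were chosen with earlier results of these data known. Ratios and thinning were tested on simulated data. The GEO samples could not be matched to fibre types and were left unassigned. Tools were scanpy 1.11.5 and leidenalg 0.10.2 for clustering, scipy 1.17.1 for intervals, matplotlib 3.10.9 for plots, and numpy 2.4.6 with pandas 2.3.3 under Python 3.11.15.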

Additional observations from a re-analysis of the deposited data

Results flagged for a closer look

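Barcodes that the authors did not keep, and that no comparison above uses, also held vessel genes. Of 2659 such barcodes of CT-LCG, with a median of 716 UMIs, 55 (2.07%) had PECAM1 or PLVAP, and of 1589 of FT-LCG, with a median of 607 UMIs, 40 (2.52%) had. They were singled out because a count of 0 would allow up to 0.113% and 0.189%, and there are no control samples. The 55 barcodes held 61 UMIs of the pair and the 40 held 51. PLVAP was at 0.106 in the barcodes of CT-LCG against 0.109 over all kept cells, and at 0.271 against 0.155 in FT-LCG. PECAM1 was at 0.202 against 0.161 and at 0.241 against 0.110. The part of free RNA in these counts was not tested. TFPI2 was found in 2.67% of these barcodes in CT-LCG and 9.82% in FT-LCG.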

How the results depend on the processing

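No paired analysis was possible because each fibre type has 1 library and no result comes from a test. The shares moved with the definition of a vessel cell and with thinning. With 2 or more UMIs of PECAM1 and PLVAP the vessel share was 1.63% in CT-LCG against 1.57% in FT-LCG, with both genes 0.755 and 1.08%, with a further endothelial gene 1.71 and 1.86%, by the endothelial-like cluster 1.68 and 1.62%, after thinning to 1000 UMIs 2.93 and 2.07%, and over all deposited barcodes of CT-LCG 3.46%. In the same order up to the cluster, the venular share of CT-LCG was 41.1, 69.2, 39.0 and 43.1%, and that of FT-LCG 53.6, 68.3, 46.4 and 51.3%. It was 34.5% thinned and 33.8% in cells with at least 1000 genes of FT-LCG. Cells with any of the 7 free members made up 38.5% of vessel cells in CT-LCG against 57.1% in FT-LCG, and under the 4 definitions 75.0, 92.3, 74.6 and 82.8% and 92.1, 99, 86.6 and 91.7%. Thinned, the share was 66.1% in FT-LCG, and with at least 1000 genes it was 46.8% in CT-LCG against 69.2% in FT-LCG. The share of member UMIs outside vessel cells was 52.4, 55.9, 52.1 and 50.8% in CT-LCG under the 4 definitions, 56.9% thinned and 46.2% with at least 1000 genes. In FT-LCG it was 49.3% with both genes, 46.7% thinned, 44.5% with at least 1000 genes and 48.3% without the highest doublet scores. With at least 50 UMIs, a limit that leaves fewer genes to test, 239 genes were past 4-fold, against 385 of the 9663 with at least 20. The cause of these shifts was not tested, beyond what each definition selects.

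The log2 ratio of FT-LCG over CT-LCG, positive over all vessel cells, turned negative for AQP1 in the endothelial-like cluster (-1.68e-05), for PLVAP (-0.112), ACKR1 (-0.118), AQP1 (-0.0977) and CD34 (-0.181) among vessel cells with a further endothelial gene, and for AQP1 (-0.0722) and CD34 (-0.0263) in the cluster without keratin-rich cells, a setting chosen after seeing the data. All 7 intervals held 0. TFPI2, SELE, SELP, VWF and PECAM1 kept their direction under every setting tried. Leaving out cells with PTPRC moved none of these shares beyond its interval. With 1 library per type, depth limits counting error only, and no spread between animals can be given.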
